A study of Mus musculus with 7 samples.

Results

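Esrrb (gene ID 26380) encodes an orphan nuclear receptor of the estrogen-related receptor family, and its locus was examined for every listed peak of Oct1 and Oct4 that touched the gene or its 50 kb flanks. Peaks were assigned by position alone, and 27 of the 53151 peaks in the 4 deposited lists fell in this window. The gene was chosen by its numbers of listed peaks, many of Oct1 and Oct4 in ESCs and none of Oct1 later, so these numbers are a description of the locus and were not tested. Chromatin immunoprecipitation with sequencing (ChIP-seq) had been run on parental mouse embryonic stem cells (ESCs), with separate libraries for Oct1 and for Oct4, and for Oct1 again at day 3 and day 6 of differentiation towards mesoderm. All cells had the parental genotype. Differentiating cells received Bmp4 for 2 days in N2B27 medium and then Rspo3 with LDN-193189, a BMP receptor inhibitor, in a DMEM-based medium for 4 days, so that on this schedule day 3 falls 1 day after the switch and day 6 at its end. Chromatin was fixed with 1% formaldehyde. Each of the 4 groups had 1 library, so no replicate error exists and no test between groups was made. The ESC Oct1 list held 17709 peaks, the ESC Oct4 list 22817, the day 3 list 4867 and the day 6 list 7758, and the labels state a nominal 100 M read pairs of 50 bp for every library, while the number of mapped reads behind each list is unknown. No RNA was measured, so neither the cell type nor the activity of the gene could be checked here.

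In mouse ESCs, Esrrb belongs to the group of transcription factors that hold cells in the naive pluripotent state, together with Nanog, Klf2, Tfcp2l1 and others. Nanog activates the gene, and Tcf7l1, the repressor at the end of the Wnt pathway, holds it down until GSK3 is inhibited. Oct1 (gene Pou2f1) and Oct4 (gene Pou5f1) each contact the octamer ATGCAAAT through a POU-specific domain, which reads ATGC, and a POU homeodomain. Oct4 is restricted to pluripotent and germ line cells, whereas Oct1 is made in most cell types.

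Esrrb lies on the plus strand of chromosome 12 (GRCm38), from 86361117 to 86521628, and spans 160.5 kb. RefSeq gives it 2 transcript starts, the first at 86361117 and the second 60.5 kb further on, at 86421644. Neither promoter carried a listed peak of any library. The 250 bases before each start are printed to show the sequence at which no peak was listed (RefSeq, GRCm38.p6, plus strand, 5′ to 3′), with every match to ATGC or its reverse complement GCAT in capitals.
First start, chr12:86360867-86361116: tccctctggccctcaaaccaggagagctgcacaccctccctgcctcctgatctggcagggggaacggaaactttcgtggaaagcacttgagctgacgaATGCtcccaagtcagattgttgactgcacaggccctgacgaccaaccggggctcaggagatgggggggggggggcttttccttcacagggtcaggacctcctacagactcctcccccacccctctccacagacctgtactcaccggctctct
Second start, chr12:86421394-86421643: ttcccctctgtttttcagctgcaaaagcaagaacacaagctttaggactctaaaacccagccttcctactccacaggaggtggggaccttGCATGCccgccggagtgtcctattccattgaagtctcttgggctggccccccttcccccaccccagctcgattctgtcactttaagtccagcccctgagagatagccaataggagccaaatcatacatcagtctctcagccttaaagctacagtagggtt
The full octamer, ATGCAAAT or ATTTGCAT, was in neither sequence, and it occurred in 1.60% of the 32851 promoters of this table and length. ATGC, which is part of the octamer, matched 1 time before the first start and 2 times before the second, where both matches overlap in a palindrome, and 70.0% of all promoters held it on either strand. ACAAAG, the core bound by Sox factors, and TCAAGGTCA, the element read by estrogen-related receptors themselves, were absent from both sequences on either strand, against shares of 16.5% and 0.387% of all promoters. The closest ESC Oct1 peak lay 27.3 kb after the first start and 13.9 kb after the second. For ESC Oct4 these distances were 18.8 kb and 14.0 kb. A listed peak within these 250 bases was uncommon in ESCs in general, at 4.64% of all promoters for Oct1 and 3.58% for Oct4. For Oct1 it was listed at 9.73% of promoters at day 3 and at 21.3% at day 6.

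In ESCs the window from 86311117 to 86571628 held 13 Oct1 peaks and 14 Oct4 peaks. The gene body itself held 12 of each. The remaining peaks, 1 of Oct1 and 2 of Oct4, lay upstream, and no ESC peak was listed in the 50 kb downstream of the gene. At day 3 and day 6 the window held no Oct1 peak. Within the same distance, ESC Oct1 peaks were listed at 58.7% of all 21887 protein-coding genes and ESC Oct4 peaks at 62.5%. For Oct1 at day 3 and at day 6 these shares were 41.5% and 57.9%. Other annotated features touch the window, namely the long non-coding RNA genes Gm32666 and Gm40483 and the pseudogene Gm52007, and none of them overlapped a peak. The gene table gives no exons, so whether a peak inside Esrrb is exonic or intronic is not known.

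**Figure D1:**
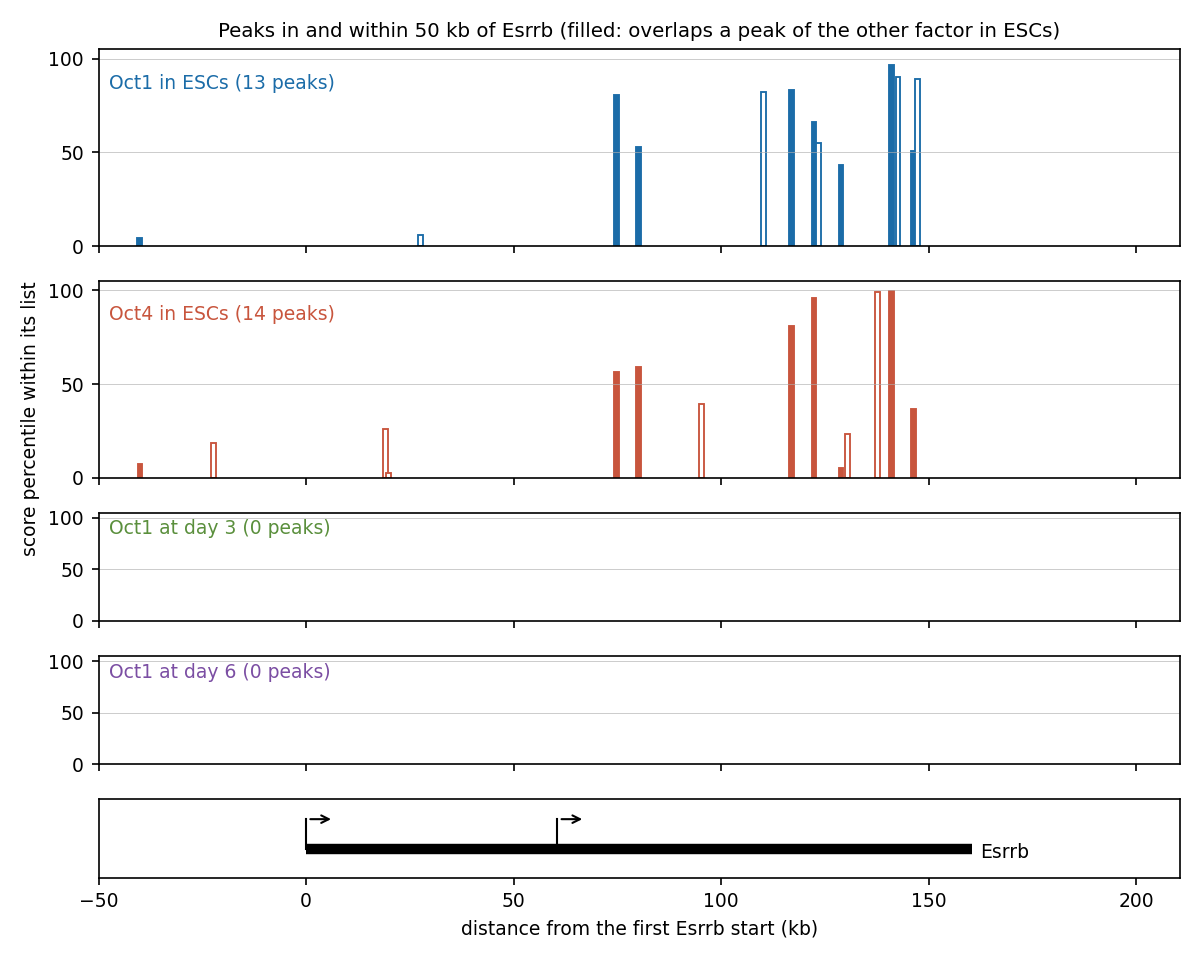
Each bar is a listed peak at its midpoint, in kb from the first Esrrb start, and its height is the percentile of its score within its own list (100 is the strongest). Filled bars overlap a peak of the other factor in ESCs, open bars do not, and bar width is drawn larger than the peaks. The lowest panel shows the gene as a thick line with its 2 transcript starts as arrows. Of the 13 Oct1 and 14 Oct4 peaks, 9 and 7 lie in the gene beyond 100 kb.

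The score is a whole number that the authors gave each peak, without a unit, so it is used here only to rank peaks within a list. The percentile of a peak is the percent of its list with a lower score, ties counted equally to both sides. Rank 1 is the highest score.

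The strongest peak of both factors at Esrrb was at the same site, 141.0 kb after the first start. The Oct4 peak there (chr12:86501731-86502550) had a score of 971, rank 55 of 22817 and percentile 99.8. The Oct1 peak (chr12:86501741-86502590) had a score of 641, rank 612 of 17709 and percentile 96.5. Their midpoints were 25 bp apart and they shared 810 bp. The site is therefore among the upper few percent of each list, and stands higher in the Oct4 list than in the Oct1 list.

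Oct4 had 2 further peaks in the highest 10% of its list, and both lay before this site. One at chr12:86498591-86499090 (137.7 kb, score 571, rank 194, percentile 99.1) had no overlapping Oct1 peak, and the nearest Oct1 peak began 2650 bp away. The other, at chr12:86483281-86483820 (122.4 kb), had a score of 348, rank 941 and percentile 95.7. The Oct1 peak that overlapped it by 460 bp was of middling rank, with a score of 144, rank 5785 and percentile 66.1. Oct4 peaks of high score thus came with a strong Oct1 peak, with a middling one, or with none.

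Oct1 in turn had peaks of high rank with no overlapping Oct4 peak. The second strongest Oct1 peak of the locus, at chr12:86503301-86504130 (142.6 kb), had a score of 323, rank 1704 and percentile 90.2, and an Oct4 peak ended 750 bp before it. The third, at chr12:86508171-86508710 (147.3 kb), had a score of 302, rank 1946 and percentile 89.0, with an Oct4 peak 380 bp away. The peak at chr12:86471061-86471560 (110.2 kb, score 223, percentile 82.2) had no Oct4 peak within 6190 bp. The peak at chr12:86484271-86485010 (123.5 kb), 450 bp after an Oct4 peak, was near the middle of the list with a score of 112 and percentile 54.8. These peaks and the strongest site all lie in the last part of the gene.

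Merging overlapping peaks gave 19 sites, of which 8 had both factors, 5 had only Oct1 and 6 had only Oct4. Thus 8 of 13 Oct1 peaks (61.5%, exact Clopper-Pearson 95% interval 31.6 to 86.1) overlapped an Oct4 peak, against 59.1% of all ESC Oct1 peaks. Seen from Oct4, the share was 8 of 14 (57.1%, 28.9 to 82.3), against 46.0% of all ESC Oct4 peaks. Both shares are near the background, which lies inside each interval, so the degree of pairing is not a result about Esrrb. The intervals cover counting alone. Where peaks overlapped, they coincided closely, with midpoints 5 to 75 bp apart (median 32.5 bp) and at least 82.9% of the Oct1 peak covered. The median over all 10461 overlapping pairs of the series was 55 bp, and its central range was 25 to 120 bp (quartiles). All starts and ends in the lists are multiples of 10 bp, which limits these offsets.

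**Figure D2:**
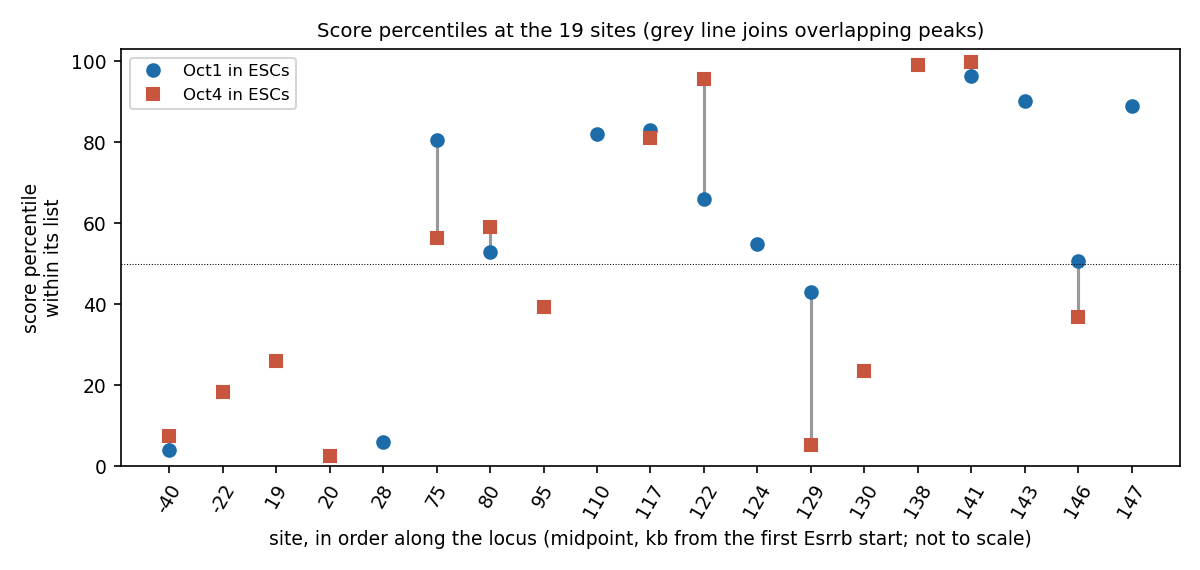
The 19 sites are in order along the locus, labelled by their midpoint in kb from the first Esrrb start and not to scale. Circles are Oct1 and squares Oct4 in ESCs, the vertical axis is the score percentile within the list, and grey lines join overlapping peaks, which differ by 1.82 to 37.7 percentile points.

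Among the 8 paired sites, the Oct1 percentile was the higher one at 4 and the Oct4 percentile at the other 4. The closest match was the site at 116.9 kb, where Oct1 scored 229 (percentile 83.0) and Oct4 217 (percentile 81.2). The widest gap was at 128.9 kb, where Oct1 scored 95 (percentile 43.0) and Oct4 only 65 (percentile 5.35). The site at 74.8 kb also stood higher for Oct1, at percentile 80.7 against 56.3. At 80.1 kb both peaks were near the middle of their lists, at 53.0 for Oct1 and 59.1 for Oct4, and at 146.4 kb the values were 50.8 and 36.9. The upstream site, 40.1 kb before the first start, was weak in both lists, with a score of 44 (percentile 4.14) for Oct1 and 71 (percentile 7.55) for Oct4. It was the member nearest to the edge of the window, 9.46 kb inside it for Oct4. Outside the edge, the nearest peaks were an Oct4 peak 3.06 kb beyond it upstream (score 126, percentile 41.1) and, downstream, an overlapping pair of an Oct4 peak 8.46 kb beyond it (score 65) and an Oct1 peak 8.59 kb beyond it (score 44).

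Over the locus, Oct1 scores ran from 44 to 641 with a median of 144, against a median of 106 in the whole list. The median percentile was 66.1 (95% interval of the median from order statistics, 43.0 to 89.0), and 10 of 13 peaks lay above the middle of the list, where 50.3% of all ESC Oct1 peaks lie. Oct4 scores ran from 56 to 971 with a median of 123, against 143 in the whole list. The median percentile was 38.2 (7.55 to 95.7), and 6 of 14 peaks lay above the middle of the list, against 49.9% of all. Both intervals include 50, but they are wide. They cover counting alone and treat neighbouring peaks as independent, so they cannot decide whether either set differed from its list. The order of the 2 factors depended on the weaker peaks. With only the stronger 50% of each list kept and percentiles taken anew within it, the median was 63.1 for Oct1 and 76.8 for Oct4, and from the 4867 strongest peaks of each list the medians were 49.1 and 87.9. Of the 14 Oct4 peaks, 3 were in the highest 10% of the list and 3 in the lowest 10%. Of the 13 Oct1 peaks, 2 were in each.

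Scores also differed between paired and unpaired peaks, in opposite directions for the 2 factors. The 5 unpaired Oct1 peaks had a median percentile of 82.2 and the 8 paired ones 59.6. For Oct4, the 6 unpaired peaks had a median of 24.8 and the 8 paired ones 57.7. Across the series, paired and unpaired Oct1 peaks both had a median of 50.1, while paired Oct4 peaks stood higher (65.8) than unpaired ones (39.4). With so few peaks these medians are descriptions, since 1 or 2 peaks move them.

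Within the gene body, peaks were more frequent towards the far end, more so for Oct1 than for Oct4. Beyond 100 kb from the first start, which is 37.7% of the gene, lay 9 of the 12 Oct1 and 7 of the 12 Oct4 peaks of the gene body. They formed 11 sites within 37.6 kb (chr12:86471061-86508710), 5 of them with both factors. The median percentile there was 82.2 for Oct1 and 81.2 for Oct4, against 29.5 for the other 4 Oct1 peaks and 25.9 for the other 7 Oct4 peaks of the window. The 100 kb limit was set after these values were seen, so the contrast is partly built in and is only a description. Oct4 peaks of the stretch also included weak ones, at percentiles 5.35, 23.6 and 36.9. Outside this stretch, only the pairs at 74.8 kb and 80.1 kb lay above the middle of their lists. Neighbouring Oct1 peaks were separated by a median of 4770 bp (12 gaps, from 460 to 67140 bp), and neighbouring Oct4 peaks by 5870 bp (13 gaps, from 170 to 54290 bp). The longest stretch inside the gene without a peak of either factor was 46.6 kb, after the weak Oct1 peak at 27.6 kb (score 48, percentile 6.08), and the second transcript start lies in it. Before the second start, the gene held 1 Oct1 peak and 2 Oct4 peaks. The 2 Oct4 peaks, at 19.1 and 19.9 kb, were 170 bp apart, with scores of 104 and 56. Apart from the strong peak at 137.7 kb, the remaining Oct4 peaks without Oct1 were also below the middle of the list, namely those at 95.2 kb (score 125, percentile 39.4), at 130.4 kb (score 101, percentile 23.6) and 22.3 kb upstream of the gene (score 93, percentile 18.3). Peaks at the locus were about as wide as elsewhere, with a median of 670 bp for Oct1 (list 630 bp) and 630 bp for Oct4 (list 640 bp).

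Of the ESC Oct1 peaks at Esrrb, 13 of 13 had no Oct1 peak at day 3 or day 6. This count was part of the choice of the gene. In the whole ESC Oct1 list, 87.5% of peaks had none later. The nearest day 3 peak lay 172.7 kb downstream of the gene, at chr12:86694291-86695400 in Vash1 (score 78, percentile 15.6 of its list). The nearest day 6 peak lay 119.0 kb upstream, at chr12:86241611-86242130 at Gpatch2l (score 253, percentile 24.9). The day 3 and day 6 lists are shorter than the ESC list, each time is 1 library, and the effects of time, depth and threshold cannot be told apart.

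Peak-rich sequence was not limited to Esrrb. Of 8 adjoining windows of the same 260.5 kb, 4 on each side, the one directly downstream held 17 Oct1 and 13 Oct4 peaks in ESCs, about as many as the Esrrb window. The other windows were lower in both lists, and over all 8 the median was 5 for Oct1 (0 to 17) and 4.5 for Oct4 (1 to 13). The downstream window contains Vash1, Angel1 and Lrrc74a, whose gene bodies together held 4 of its Oct1 and 2 of its Oct4 peaks. Every adjoining window held at least 1 day 6 peak (up to 5), and 3 of the 8 held a day 3 peak, whereas the Esrrb window held neither, which is part of how the gene was chosen. The Esrrb window also held 1 protein-coding gene, against 3 to 10 in the adjoining windows, and the part of gene number in these counts was not tested.

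**Figure D3:**
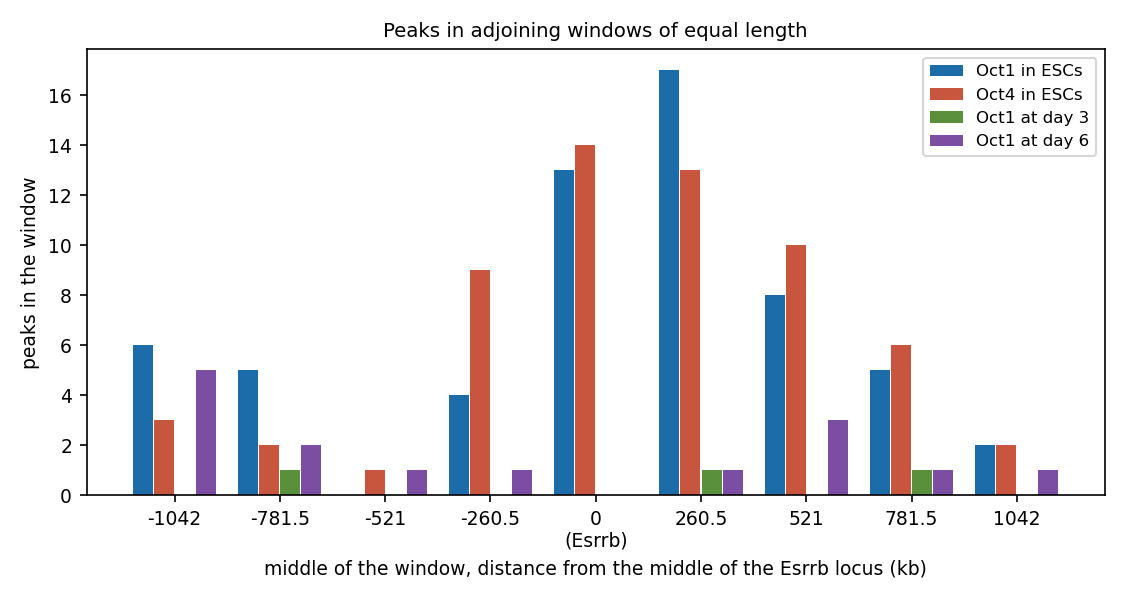
Bars give the number of listed peaks of each library in 9 adjoining windows of 260.5 kb, by the distance of their middle from the middle of the Esrrb window in kb. The Esrrb window has 13 Oct1 and 14 Oct4 peaks and no day 3 or day 6 peak, and the next window downstream has 17 and 13.

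By number of ESC peaks, Esrrb ranked 129 of 21887 protein-coding genes for Oct1 and 268 for Oct4, and 99.2% and 98.4% of genes had fewer. The median gene had 1 peak of each, and the gene with the most was Rbfox3, with 54 and 88. These ranks take no account of gene length. Per 100 kb of gene and flanks, Esrrb had 4.99 Oct1 and 5.37 Oct4 peaks and ranked 1186 and 2226. Among the 933 genes within 25% of its length, 44 had at least as many Oct1 peaks and 60 at least as many Oct4 peaks, Esrrb included, and the median was 1 for each. In both ESC lists together, 127 other genes had at least as many peaks, and 6 of these also had no day 3 or day 6 peak. Esrrb and those 6 are 0.0320% of protein-coding genes, a share that reflects how the gene was picked.

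**Figure D4:**
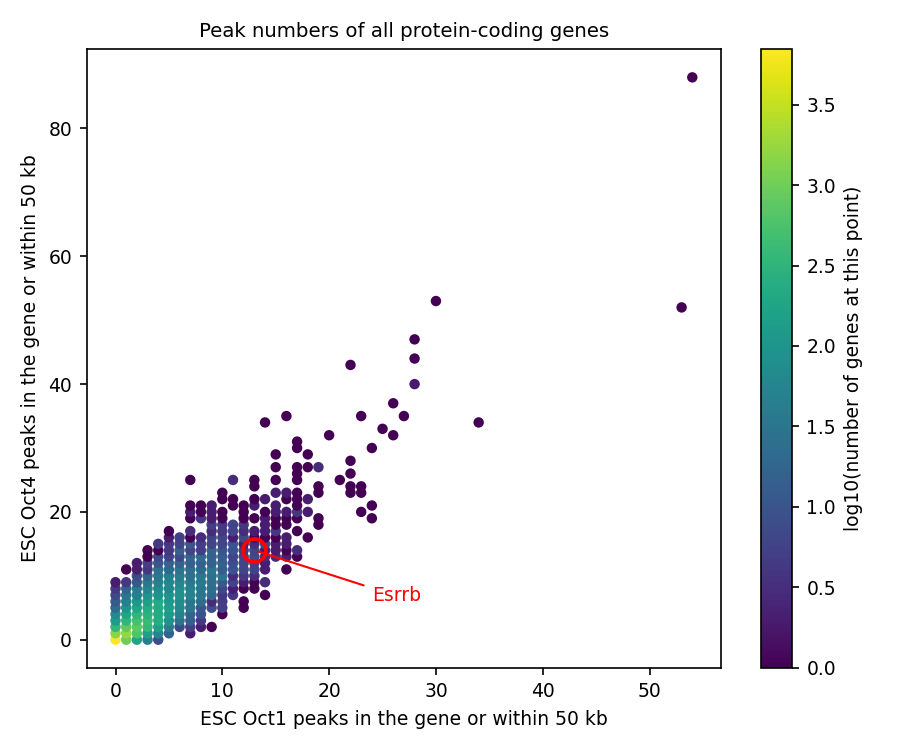
Each point is a combination of ESC Oct1 and ESC Oct4 peak numbers in a gene or within 50 kb, coloured by how many protein-coding genes share it (log10 scale). Esrrb, circled, has 13 and 14 peaks, and the gene furthest out has 54 and 88.

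The genes with the most similar numbers in the 4 lists were found by the sum of absolute differences in peak number. Rab6b (a small GTPase of retrograde transport) was the closest, with 13 ESC peaks of either factor and no peak at day 3 or day 6, a difference of 1. Each of the next genes differed by 2. Arl8a had 11 and 14 peaks and Gpr37l1 had 12 and 15, with none later, but these genes are neighbours on chromosome 1 and share peaks. Fstl4 had 13 and 13 and Hsf2bp 12 and 14, and each had 1 day 6 peak. These values describe likeness of peak numbers over 4 libraries and no more.

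Of 24 genes linked with Esrrb in the ESC network, 20 had an ESC Oct1 peak within 50 kb, against 58.7% of all protein-coding genes, and 19 an ESC Oct4 peak, against 62.5%. The median numbers of peaks were 3 and 2, against 1 and 1 over all genes. The list was chosen with earlier results of these data known, so its shares, here and below, are a description and were not tested. Sox2, Klf4, Klf5 and Nr0b1 had neither an Oct1 nor an Oct4 peak in ESCs, and Il6st lacked an Oct4 peak. Day 3 peaks were listed at 10 of them (41.7%) and day 6 peaks at 16 (66.7%), close to the backgrounds of 41.5% and 57.9%. Both ESC lists had a peak at 19 of the 24, against 53.1% of all protein-coding genes, and a day 3 or day 6 peak was listed at 18, against 62.5%. Peaks in both ESC lists and none later, the pattern of Esrrb, were found at 5 of the 24, and at 9.09% of all genes. These 5 were Nanog (3 Oct1 and 3 Oct4 peaks), Prdm14 (2 and 2), Tfcp2l1 (3 and 1), Nr5a2 (2 and 1) and Otx2 (1 and 1). The first 4 are regulators of naive pluripotency, and Otx2 drives the exit from it. Other ESC genes of the list did not share the pattern. Klf2, Tbx3, Zfp42 and Dppa3 had peaks in both ESC lists but also a later Oct1 peak. Klf4 and Klf5 had no ESC peak and a day 6 peak. The only gene of the list with numbers like those of Esrrb was Tcf7l1, its repressor, a gene of 162.7 kb with 15 Oct1 and 13 Oct4 peaks. Unlike Esrrb, it also had 1 day 3 and 3 day 6 peaks. At Tcf7l1, 9 of the 15 Oct1 peaks overlapped an Oct4 peak, a share near the 59.1% of the whole list, and the highest percentiles were 92.7 for Oct1 and 99.1 for Oct4.

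Ncoa3, a coactivator of the Esrrb protein, had 4 Oct1 and 8 Oct4 peaks in ESCs, no day 3 peak and 1 day 6 peak. Ctnnb1, which encodes beta-catenin, had 8 and 6 with 1 peak at each later time. The 50 kb flanks of both genes reach into peak-rich neighbours. Sulf2, with 18 Oct1 and 22 Oct4 peaks in ESCs, starts in the flank of Ncoa3. Ulk4, with 23 of each, starts in that of Ctnnb1. How many of the counted peaks lie in these neighbours was not determined. Pou5f1 had 6 and 4, and its highest Oct4 percentile, 99.95, was above the 99.76 of Esrrb. It had 1 Oct1 peak at each later time. Sall4, a zinc finger factor of ESCs, had 7 and 5 with 2 day 6 peaks. The DNA demethylation enzyme genes Tet1 and Tet2 had 5 and 3 and 3 and 2 ESC peaks, with 2 day 6 peaks at Tet1 and 1 peak at each later time at Tet2. Stat3, which acts downstream of LIF, had 3 and 6 with 1 at each later time, and the LIF receptor gene Lifr had 2 and 3 with 1 at day 6. Dppa3 (4 and 4) and Zfp42 (1 and 2) each had 1 day 3 peak and none at day 6. The windows of Dppa3 and Nanog overlap, so these genes can share peaks. The transcription factor gene Klf2 had 3 and 3 with 1 at day 6, and Tbx3 had 3 and 2 with 3 at day 3 and 1 at day 6. Gsk3b, the kinase that marks beta-catenin for breakdown, had 1 peak in each of the 4 lists. Of the paralogs, Esrra, a gene of 11.1 kb, had 3 Oct1 and 4 Oct4 peaks, with 1 Oct1 peak at day 3 and 4 at day 6, and Esrrg, although 606.4 kb long, had 3 and 2, with 1 at each later time. The highest Oct1 percentile of Esrra was 99.9 in ESCs, 99.7 at day 3 and 99.8 at day 6, and that of Esrrg was 96.1, 98.7 and 76.5. The windows of these genes differ in length, and per 100 kb of gene and flanks the ESC values were 2.70 for Oct1 and 3.60 for Oct4 at Esrra and 0.425 and 0.283 at Esrrg, against 4.99 and 5.37 at Esrrb and medians of 0.790 and 0.890 over all genes. Esrrb was chosen by its own numbers, so they are set beside those of its paralogs as a description.

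**Figure D5:**
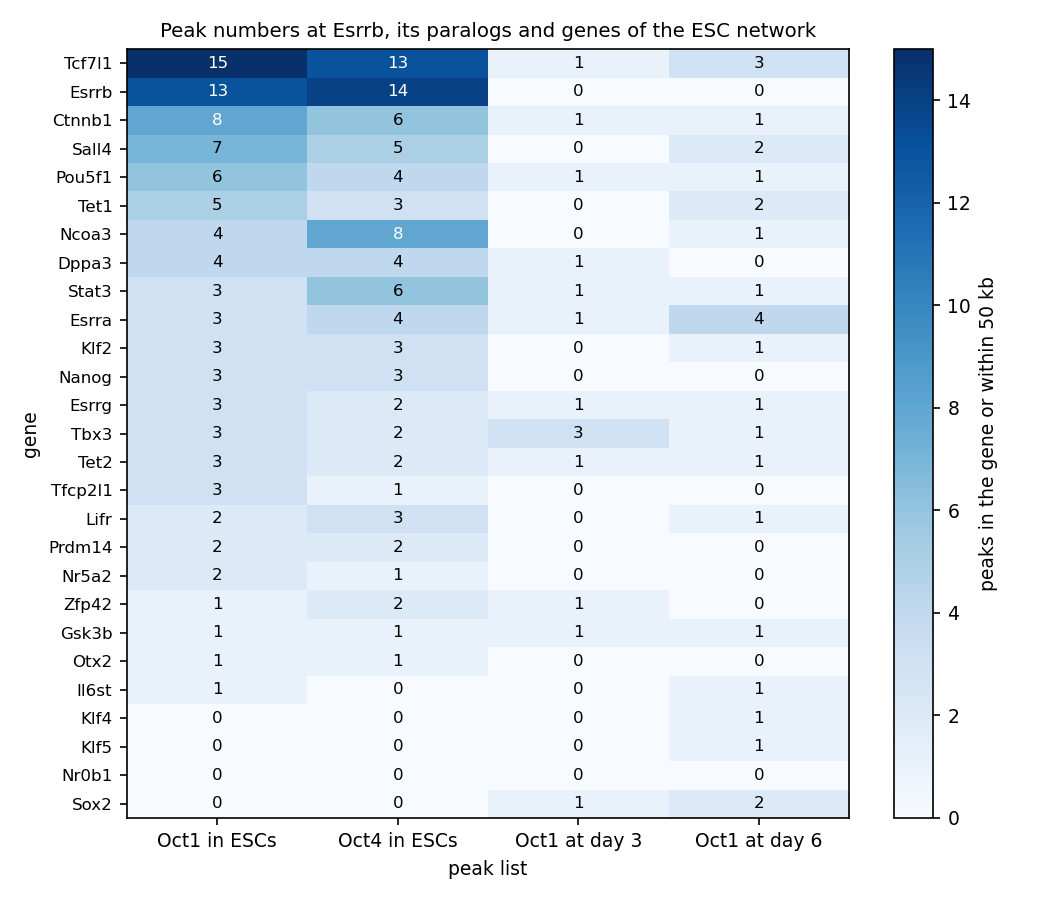
Each cell gives the number of listed peaks in the gene or within 50 kb, for Esrrb, its paralogs Esrra and Esrrg and 24 genes of the ESC network (rows), in the 4 lists (columns). Esrrb and Tcf7l1 have the most ESC peaks, and Tcf7l1 alone of this pair has later ones (1 and 3).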

How the data were processed

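Peak lists were used for 4 of the 7 samples, and the 3 inputs were not analysed here. Per the submitters' processing notes, reads were aligned with Novoalign 3.8.2 and the build was mm10. The peak caller, its threshold and the use of the inputs are not given in the sources used here. The deposited lists give each peak a score, a whole number from the authors with no stated unit, in 1 list per library. Starts were made 1-based. Genes and promoter sequences came from RefSeq tables of GRCm38.p6. No genome sequence outside these promoters was used, so peak sequences were not read. A peak was assigned to a gene when it overlapped the gene or its 50 kb flanks, and peaks were called shared from 1 bp of overlap. Per the labels, a nominal 100 M read pairs were sequenced per library, the mapped depth is unknown, and no test was run. Calculations used Python 3.11.15, numpy 2.4.6, pandas 2.3.3 and scipy 1.17.1, and figures matplotlib 3.10.9. The functions were tested on simulated data. Esrrb, the gene list and the alternatives were chosen with earlier results of these data known. The genes named are Esrrb, genes in its window, the 5 with the nearest peak numbers, list members with peaks in both ESC lists, and the paralogs. Others (Rbfox3, Gpatch2l, the genes of the downstream window, list members without peaks) were chosen after their values were seen, as were the search for ATGC, the adjoining windows and the 100 kb limit.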

Additional observations from a re-analysis of the deposited data

How the results depend on the processing

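For 13 results there were 87 alternative values, and 68 of them stayed within 1.5 times the number reported or within the interval of the median. This tally does not measure stability, because the intervals of the medians are wide. The interval of the Oct4 median percentile ran from 7.55 to 95.7, so a move from 38.2 to 87.9 counted as staying within it. No peak was listed at day 3 or day 6 under any alternative tried for these counts, flanks of 0, 10 and 100 kb included. Only the 100 kb flank could have added a peak. Narrower flanks and shortened or merged lists could not, since the full window held none. They are therefore no check of this result, though they are counted among the 68. With only the stronger 50% of the peaks of a list, 10 Oct1 and 6 Oct4 peaks remained, with 5 Oct1 and 5 Oct4 peaks paired. With every list shortened to 4867 peaks, 6 Oct1 and 4 Oct4 peaks remained, 2 of each paired. Both alternatives lower these numbers by construction, and they put the median percentile of Oct4 (76.8 and 87.9) above that of Oct1 (63.1 and 49.1), the reverse of the order in the full lists. The number of pairs was 8 with 50% mutual overlap and with peaks set to 500 bp, and 9 of 13 for Oct1 with midpoints within 1 kb. Merging peaks under 1 kb apart moved the median midpoint distance of pairs to 267.5 bp, since merged peaks have other midpoints. Flanks of 100 kb took the median Oct4 gap to 12520 bp. The rank among genes depended on the setting most. For Oct1 it was 51 in the gene body alone, 63 with 10 kb flanks, 321 with 100 kb, 37 with the higher 50%, 53 with shortened lists and 1186 per kb. For Oct4 it was 96, 116 and 549 with these flanks, 526 with the higher 50%, 2226 per kb and, close to the 268 reported, 257 with shortened lists. The cause was not tested. No paired analysis was possible because each group had 1 library. Only the nominal depth, equal for all libraries, is known, so what the mapped depth limits could not be stated.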
